A study of Mus musculus with 12 samples.

Results

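The Hox genes of the mouse lie in 4 clusters, HoxA to HoxD, and were taken here as the 39 protein-coding genes of the GENCODE M21 annotation (mm10) whose symbol is Hoxa, Hoxb, Hoxc or Hoxd followed by a number, out of 21938 protein-coding genes on the nuclear chromosomes. HoxA holds 11 of them, HoxB 10, HoxC 9 and HoxD 9. YY1 peaks were taken from the window of each cluster, which ran from the outer end of the first to that of the last Hox gene plus 20 kb on each side, and the 4 libraries held 41 peaks there. YY1 is a zinc finger DNA-binding protein that occupies many promoters and enhancers and also tethers Xist RNA to the inactive X chromosome.

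YY1 was measured by ChIP-seq in lineage-negative (Lin-) bone marrow cells, the fraction that remains after cells bearing mature blood cell markers are removed and that is rich in stem and progenitor cells. The cells came from 3-month-old female mice of the 129Sv4/Jae x B6 strain, 2 libraries from wild type (WT) and 2 from XistΔ/Δ. XistΔ/Δ mice carry a conditional Xist allele deleted by Vav-iCre, a Cre that is active across the blood lineage, so deletion is not limited to Lin- cells. Whether WT mice carried the Cre, and how many mice made up a library, are not given in the sources used here. A broad peak covered the Xist start site on chromosome X in WT replicate 1 (3083 bp) and WT replicate 2 (3222 bp), and the start site was free of peaks in both XistΔ/Δ libraries, which matches the labels.

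The replicate 2 libraries were deeper, at 50.0 M tags in WT and 59.5 M in XistΔ/Δ, than the replicate 1 libraries, at 24.9 M and 23.1 M, and their lists were longer (15933 and 18113 peaks against 9553 and 10075). The file headers also carry a different number for each replicate pair, so depth and that number cannot be told apart. A peak list holds only places that passed the caller's tag threshold, which was 22 tags in the replicate 1 libraries and 33 and 37 tags in the replicate 2 libraries, and no input library was used. A place without a peak is therefore a place where YY1 was not called at that depth. Peaks do not measure expression and cannot check the cell type. A promoter peak was a peak within 3 kb of the start site of a principal transcript, and 37.9% of all protein-coding genes had one in WT replicate 1, 45.7% in WT replicate 2, 37.9% in XistΔ/Δ replicate 1 and 47% in XistΔ/Δ replicate 2. Of 6 progenitor genes, 3, 1, 1 and 4 had a promoter peak in these libraries, and of 7 genes of the mature markers used for depletion 1, 3, 2 and 3.

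Hox genes encode homeodomain transcription factors that give cells their position along the body axis. Within a cluster the genes all point the same way, and their order from 3′ to 5′ follows the order in which they are switched on and their place from head to tail. Genes of the same number in different clusters are paralogues. In blood, Hoxa9 and its HoxA neighbours are active in stem and progenitor cells and fall as cells mature. Hoxb4 is known for expanding stem cells when overexpressed, and HOXA9 is linked to leukaemia. Polycomb complexes hold silent clusters, and trithorax proteins such as the MLL methyltransferase keep active ones open.

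YY1 peaks were found in HoxA and HoxB, and in neither HoxC nor HoxD in any of the 4 libraries. The HoxA window (chr6:52135590-52280880) held 6 peaks in WT replicate 1, 7 in WT replicate 2, 6 in XistΔ/Δ replicate 1 and 9 in XistΔ/Δ replicate 2. The HoxB window (chr11:96174316-96388256) held 0, 5, 2 and 6 peaks in the same order. The HoxC window (chr15:102901103-103056852) and the HoxD window (chr2:74648310-74785142) held 0 in each library. WT replicate 1 thus had no peak in HoxB at 24.9 M tags, while XistΔ/Δ replicate 1 had 2 at 23.1 M tags.

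**Figure D1:**
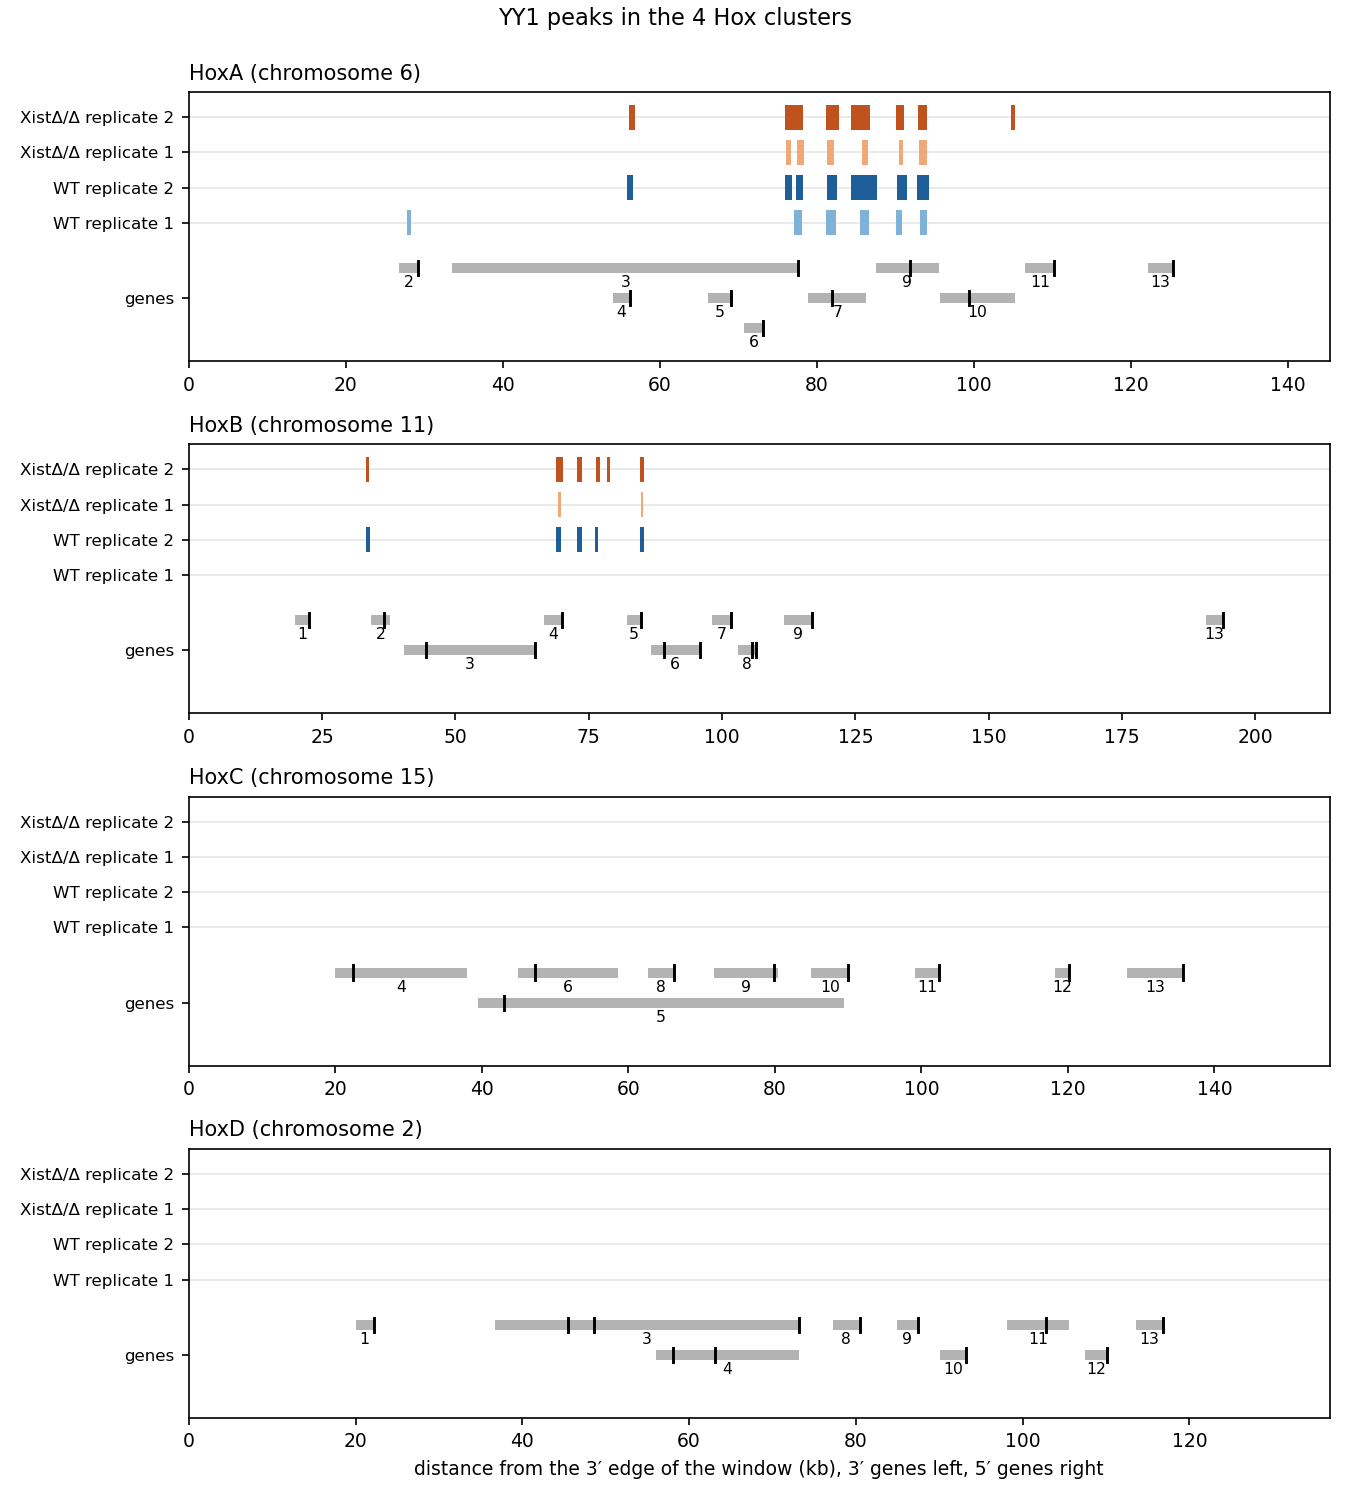
Maps of the 4 Hox windows, with distance in kb from the 3′ edge of the window on the horizontal axis. Grey bars are the genes reported here, labelled by their number, black ticks are principal transcription start sites, and coloured bars are YY1 peaks of each library to scale. Peaks that all 4 libraries share sit in a stretch of 17.2 kb of HoxA, and the HoxC and HoxD windows are empty.

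Peaks were merged wherever they shared at least 1 bp, which gave 15 regions, 9 in HoxA and 6 in HoxB. Of these, 5 had a peak in all 4 libraries, 3 in 3 libraries, 4 in 2 libraries and 3 in 1 library. A region with a peak in at least 2 of the 4 libraries was called a consensus region, and 12 regions passed, 7 in HoxA and 5 in HoxB. The 5 regions found in all 4 libraries were all in HoxA. Over the genome, 54.8% of the 14168 consensus regions had a peak in all 4 libraries. The 4 consensus regions found in 2 libraries had their peaks in both replicate 2 libraries, the deep ones, a pattern shared by 25.1% of all consensus regions. Regions are named here in 3′ to 5′ order as HoxA-a to HoxA-i and HoxB-a to HoxB-f.

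The sequences that follow are the 300 bases around the median centre of the peaks for the 5 HoxA regions found in all 4 libraries, read from the plus strand of mm10 (GRCm38). HoxA genes lie on the minus strand, so their reading direction is opposite to the letters. They are shown because they are the Hox sequences that were called at every depth, from the Hoxa3 start through Hoxa7 to the Hoxa9 gene. Capitals mark the longer motif AANATGGC where it is present, where N is any base, and otherwise its last 5 bases ATGGC, each searched on both strands, so GCCAT is the same motif on the minus strand.
HoxA-d (chr6:52213190-52213489): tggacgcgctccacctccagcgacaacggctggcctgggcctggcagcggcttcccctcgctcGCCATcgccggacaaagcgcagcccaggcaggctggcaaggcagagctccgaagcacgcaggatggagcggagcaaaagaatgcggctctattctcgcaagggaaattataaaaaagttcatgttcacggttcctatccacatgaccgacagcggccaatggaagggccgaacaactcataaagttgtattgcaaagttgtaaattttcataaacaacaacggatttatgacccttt
HoxA-e (chr6:52217283-52217582): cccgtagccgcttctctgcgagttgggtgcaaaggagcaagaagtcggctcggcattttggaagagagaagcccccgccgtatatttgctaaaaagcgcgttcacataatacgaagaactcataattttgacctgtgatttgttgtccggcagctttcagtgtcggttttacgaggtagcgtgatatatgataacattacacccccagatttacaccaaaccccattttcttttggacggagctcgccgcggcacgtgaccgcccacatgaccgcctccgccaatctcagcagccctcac
HoxA-f (chr6:52221436-52221735): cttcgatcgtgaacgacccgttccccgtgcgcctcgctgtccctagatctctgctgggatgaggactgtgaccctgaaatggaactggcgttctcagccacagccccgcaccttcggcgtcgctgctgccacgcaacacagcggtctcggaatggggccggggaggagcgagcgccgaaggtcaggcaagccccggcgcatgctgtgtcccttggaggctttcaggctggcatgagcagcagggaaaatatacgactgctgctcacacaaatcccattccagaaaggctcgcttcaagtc
HoxA-g (chr6:52226084-52226383): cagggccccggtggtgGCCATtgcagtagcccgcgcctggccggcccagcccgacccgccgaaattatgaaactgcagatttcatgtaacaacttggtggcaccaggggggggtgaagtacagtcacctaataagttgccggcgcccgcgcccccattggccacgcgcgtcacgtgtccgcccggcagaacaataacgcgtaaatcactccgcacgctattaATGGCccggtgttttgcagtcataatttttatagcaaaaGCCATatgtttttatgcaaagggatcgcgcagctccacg
HoxA-h (chr6:52228919-52229218): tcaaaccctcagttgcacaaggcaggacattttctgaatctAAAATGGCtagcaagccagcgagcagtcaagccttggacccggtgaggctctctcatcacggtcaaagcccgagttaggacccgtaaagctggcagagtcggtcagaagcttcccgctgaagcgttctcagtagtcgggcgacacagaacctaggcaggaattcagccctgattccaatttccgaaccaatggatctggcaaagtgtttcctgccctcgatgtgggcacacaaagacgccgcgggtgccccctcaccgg

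The HoxB sequence that follows is on the plus strand, which is also the strand of the HoxB genes. HoxB-a is the consensus region of HoxB that holds AANATGGC. The RefSeq promoter of Hoxd10 (GRCm38.p6, 250 bases before to 50 after the start, gene strand) stands beside it as a Hox sequence with the same motif and no peak.
HoxB-a (chr11:96354530-96354829): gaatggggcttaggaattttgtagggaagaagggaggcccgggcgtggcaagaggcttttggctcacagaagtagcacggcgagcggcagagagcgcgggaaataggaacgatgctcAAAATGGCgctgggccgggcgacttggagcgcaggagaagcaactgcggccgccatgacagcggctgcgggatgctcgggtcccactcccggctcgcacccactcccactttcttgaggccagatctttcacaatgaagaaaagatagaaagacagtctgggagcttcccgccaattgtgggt
Hoxd10 promoter (chr2:74691641-74691940): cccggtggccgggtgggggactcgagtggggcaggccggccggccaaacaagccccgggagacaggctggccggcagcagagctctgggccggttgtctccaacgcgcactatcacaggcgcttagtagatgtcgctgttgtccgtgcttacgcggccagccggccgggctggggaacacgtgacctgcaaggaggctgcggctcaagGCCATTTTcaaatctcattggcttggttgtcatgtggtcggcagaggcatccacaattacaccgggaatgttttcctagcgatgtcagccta

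HoxA-d lay on the start of Hoxa3 (ENSMUSG00000079560.13), a regulator of pharyngeal arch and thymus development. Its widest peak was 971 bp in WT replicate 1, 953 bp in WT replicate 2, 908 bp in XistΔ/Δ replicate 1 and 759 bp in XistΔ/Δ replicate 2, which also had a second peak of 501 bp in the region. These widest peaks stood at percentiles 57.3, 51.5, 61.9 and 36.9 of all peak widths of their library, in the same order. The principal Hoxa3 start site, at position 52213115 of chromosome 6, lies at the 5′ end of a long gene, between Hoxa6 and Hoxa7, and the centre of HoxA-d fell in an exon of the noncoding RNA Hoxaas3.

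HoxA-c lay 0.623 kb from the same start, in an intron of Hoxa3, and had no peak in WT replicate 1. Its peak was 881 bp wide in WT replicate 2, 627 bp in XistΔ/Δ replicate 1 and 1041 bp in XistΔ/Δ replicate 2. This region also gave Hoxa6 (ENSMUSG00000043219.9), whose start lay 2.73 kb away, its promoter peak in those 3 libraries, so the call for Hoxa6 rests on a region that is nearer to the Hoxa3 start.

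HoxA-e covered the start of Hoxa7 (ENSMUSG00000038236.8), and its centre lay in a UTR of that gene. Its width was 1237 bp in WT replicate 1, 1304 bp in WT replicate 2, 947 bp in XistΔ/Δ replicate 1 and 1595 bp in XistΔ/Δ replicate 2. HoxA-f, which ran from the 5′ UTR of a longer Hoxa7 transcript to the 3′ end of Hoxa9, was the longest of the 15 regions at 3295 bp (chr6:52219882-52223176). Its width was 1157 bp in WT replicate 1, 3295 bp in WT replicate 2, 767 bp in XistΔ/Δ replicate 1 and 2440 bp in XistΔ/Δ replicate 2. The replicate 2 peaks were the wider ones in both genotypes, at percentile 98.1 of all peak widths in WT and 95.0 in XistΔ/Δ, against 67.9 and 47.1 in the replicate 1 libraries.

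HoxA-g and HoxA-h lay on Hoxa9 (ENSMUSG00000038227.15), the HoxA gene best known in blood stem cells and leukaemia. HoxA-g, 0.365 kb from the principal start and in a 5′ UTR, was 764 bp wide in WT replicate 1, 1274 bp in WT replicate 2, 628 bp in XistΔ/Δ replicate 1 and 1029 bp in XistΔ/Δ replicate 2. HoxA-h, 0.937 kb from the principal start on its other side and in an exon of the longer transcripts, was 860, 1487, 1125 and 1142 bp wide in the same order. It ended 288 bp from Mir196b, a microRNA gene whose family targets Hox transcripts. No RefSeq promoter of Hoxa9 was itself under a peak, since the listed promoter falls in the interval between the 2 regions.

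The other HoxA regions were called in fewer libraries. HoxA-b, at the start of Hoxa4 (ENSMUSG00000000942.10), was 842 bp wide in WT replicate 2 and 759 bp in XistΔ/Δ replicate 2, with no peak in either replicate 1 library. HoxA-a, in an intron of Hoxa2 (ENSMUSG00000014704.10, a hindbrain patterning gene), was a 501 bp peak of WT replicate 1, and HoxA-i, in a 5′ UTR of Hoxa10 (ENSMUSG00000000938.11), was a 501 bp peak of XistΔ/Δ replicate 2. A width of 501 bp was the most frequent in each list, with 18.5 to 24.0% of the peaks of a library. From there to the 5′ end of the HoxA window, past Hoxa11 and Hoxa13, no library had a peak.

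HoxB regions were called most often in the deep libraries. HoxB-f, on the start of Hoxb5 (ENSMUSG00000038700.4) and in an intron of the antisense transcript Hoxb5os, was 651 bp wide in WT replicate 2, 501 bp in XistΔ/Δ replicate 1 and 631 bp in XistΔ/Δ replicate 2. HoxB-b, on the start and 5′ UTR of Hoxb4 (ENSMUSG00000038692.8) and 0.870 kb from the microRNA gene Mir10a, was 940, 501 and 1191 bp wide in those libraries. WT replicate 1 had no peak in either region.

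HoxB-c, on the other side of Mir10a at 1.70 kb and 2.80 kb from the Hoxb4 start, was 1039 bp wide in WT replicate 2 and 829 bp in XistΔ/Δ replicate 2. HoxB-d, 6.20 kb from the Hoxb4 start, was 501 and 802 bp wide in those libraries and was the consensus region of the 12 that lay more than 3 kb from every annotated start. HoxB-a, in an exon of the noncoding RNA Hoxb3os and 2.70 kb from the start of Hoxb2 (ENSMUSG00000075588.6), was 631 and 501 bp wide. HoxB-a lay past the 3′ end of Hoxb2, so the promoter peak counted for Hoxb2 rests on a region downstream of the whole gene. HoxB-e was a 501 bp peak of XistΔ/Δ replicate 2. HoxB-b to HoxB-f sat within 16.5 kb, from Hoxb5 to Hoxb4, and no peak lay on Hoxb6 to Hoxb13.

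**Figure D2:**
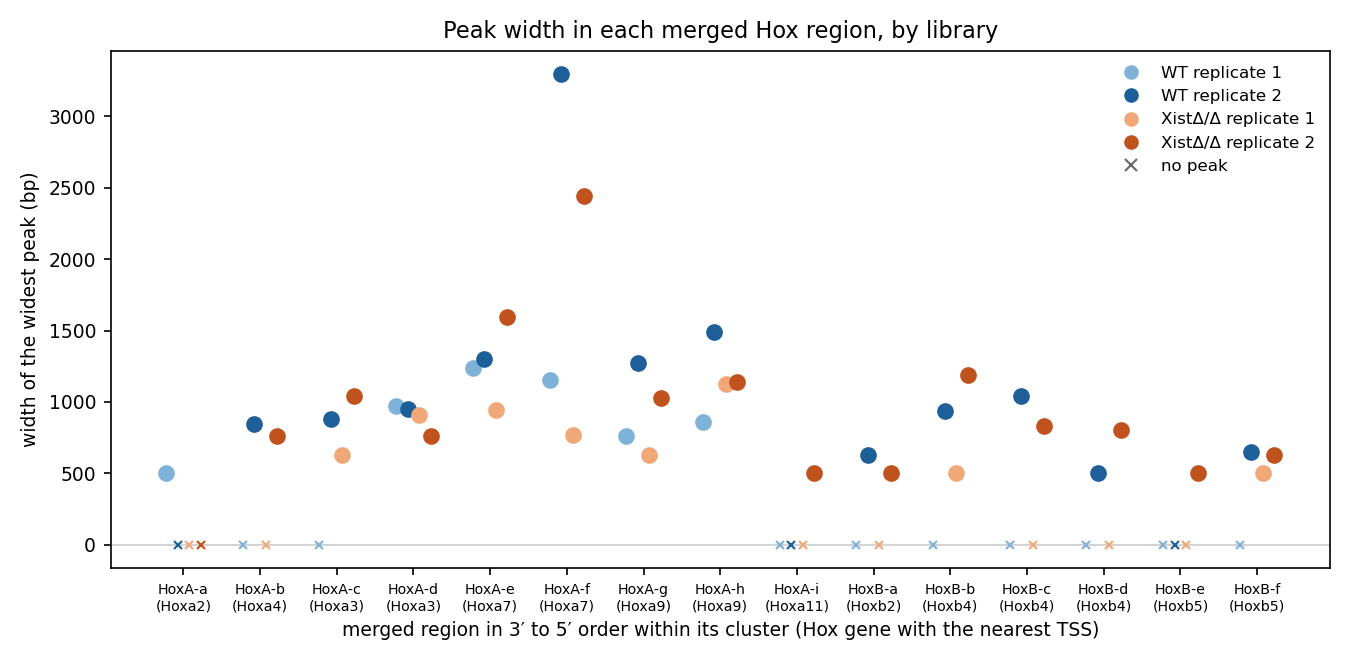
Width in bp of the widest peak of each library (colours) in each of the 15 merged Hox regions, ordered 3′ to 5′ within HoxA and then HoxB, with crosses for libraries without a peak. HoxA-d to HoxA-h carry a point from all 4 libraries, and HoxA-f reaches 3295 bp in WT replicate 2 and 2440 bp in XistΔ/Δ replicate 2.

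The clusters differed in how much of their window was covered by peaks. HoxA was covered to 3.78% in WT replicate 1, 6.91% in WT replicate 2, 3.44% in XistΔ/Δ replicate 1 and 6.72% in XistΔ/Δ replicate 2, with a mean of 5.21% ± 1.86 (SD, n = 4 libraries). HoxB was covered to 0, 1.76, 0.468 and 2.08%, with a mean of 1.08% ± 1.00. HoxA exceeded HoxB in all 4 libraries, by 4.14 percentage points ± 0.959 (SD, n = 4; two-sided exact sign-flip permutation test over libraries, p = 0.125, adjusted p = 0.25 over 6 pairs of clusters). The difference from HoxC or HoxD was 5.21 ± 1.86 points with the same p. HoxB exceeded HoxC and HoxD in 3 of 4 libraries (exact p = 0.25, adjusted p = 0.3), and HoxC and HoxD were both at 0 in every library. The difference between HoxB and HoxC or HoxD was 1.08 points, 0.488 with lists of equal length and 1.68 with the HoxB window taken from Hoxb9, without the distant Hoxb13. With 4 libraries the smallest p of this test is 0.125, so no cluster pair could pass 0.05.

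The HoxA share was 9.15 to 10.2 times that of the nuclear genome, which was covered to 0.371, 0.681, 0.342 and 0.735% in the same order of libraries. The HoxA window was also denser in genes, with 13 protein-coding genes in 145291 bases against 21938 in 2725521370 bases of the nuclear genome. Covered shares were not set against gene density. The HoxA share was 8.83 to 12.3 times that of the 200 kb on each side of its own window (0.39 to 0.612%). Those surroundings held 1 peak in each library and 2 protein-coding genes, so this ratio rests on a single neighbouring peak. HoxB stood above the genome in 3 libraries and below its own surroundings in both replicate 1 libraries, where those 200 kb were covered to 0.993% in WT and 0.803% in XistΔ/Δ. HoxC was empty although the 200 kb on each side of it held 2, 7, 4 and 7 peaks. HoxD was empty, and the 200 kb on each side of it held 2 peaks in each library other than XistΔ/Δ replicate 1, which had 0.

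The 4 windows together were covered to 0.842% in WT replicate 1, 2.12% in WT replicate 2, 0.921% in XistΔ/Δ replicate 1 and 2.18% in XistΔ/Δ replicate 2. This was above the nuclear genome by 0.983 ± 0.531 points (SD, n = 4; exact sign-flip permutation test, p = 0.125) and above the surrounding 200 kb by 0.704 ± 0.473 points (exact p = 0.125). Every library showed both differences, and in WT replicate 1 all the covered bases were in HoxA. Without the 20 kb flanks the differences were 1.48 and 1.45 points. The shares were higher in the replicate 2 libraries, which were the deeper ones. The 4 windows held 43 protein-coding genes in 652 kb, and the 200 kb on each side of them 17 in 1600 kb. Both differences are per base, and coverage relative to the number of genes was not tested.

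**Figure D3:**
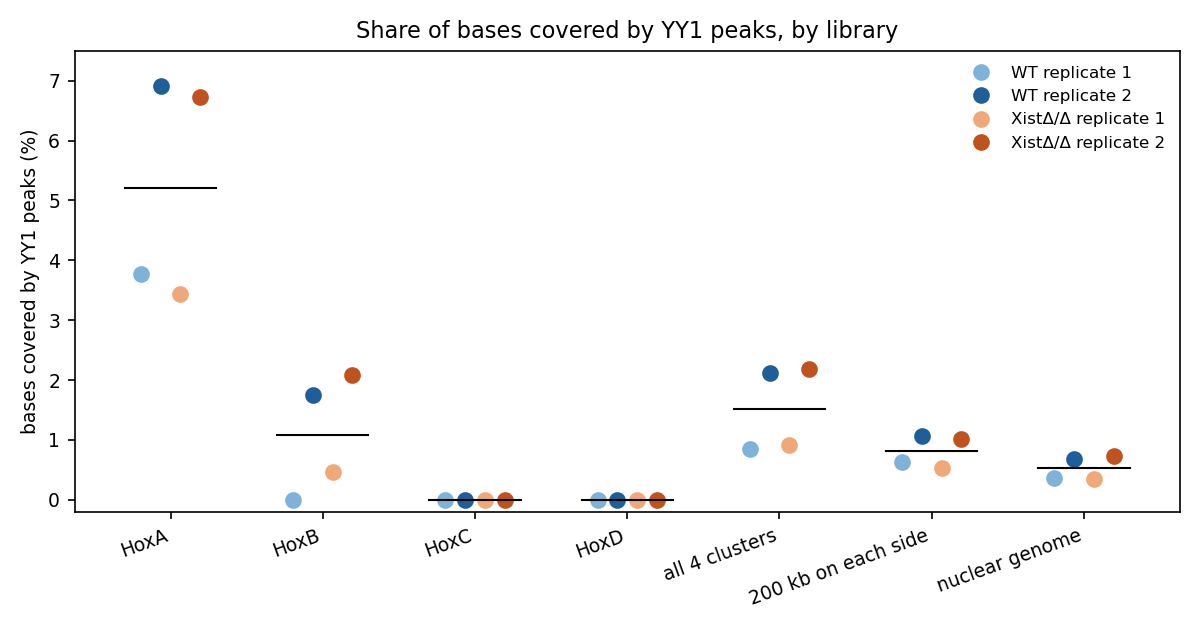
Percent of bases covered by YY1 peaks in each Hox window, in the 4 windows together, in the 200 kb on each side of them and in the nuclear genome. Points are libraries and lines are the means of 4 libraries. HoxA lies between 3.44 and 6.91% and the genome between 0.342 and 0.735%.

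HoxC and HoxD lay in long intervals without any peak. With the peaks of all 4 libraries put together, the interval around HoxC ran for 440 kb, from 178 kb before to 106 kb after the window. The interval around HoxD ran for 246 kb, from 68.9 kb before to 40.3 kb after. The median interval between neighbouring regions of the genome was 25.9 kb, and 5.56% of the 19744 intervals were longer than that of HoxC and 9.38% longer than that of HoxD. Each interval counted alike whatever its length, and an interval that holds the HoxC or HoxD window cannot be shorter than 156 or 137 kb. The share of genome bases in such long intervals is not given here, so these percentages do not show how rare such stretches are. The start of each HoxC gene was 129 to 214 kb from the nearest peak, and that of each HoxD gene 62.5 to 121 kb.

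Promoter peaks were counted next. In all, 4 of 39 Hox genes had one in WT replicate 1, 8 in WT replicate 2, 6 in XistΔ/Δ replicate 1 and 8 in XistΔ/Δ replicate 2, which is 10.3, 20.5, 15.4 and 20.5%. Of all protein-coding genes the shares were 37.9, 45.7, 37.9 and 47%. The Hox share was below that of the other protein-coding genes in all 4 libraries, by 25.5 percentage points ± 2.21 on average (SD, n = 4; mean difference -25.5, exact sign-flip permutation test, p = 0.125, the smallest it can give). The clusters were not alike in this. HoxA genes stood at 36.4, 45.5, 36.4 and 45.5% in the same order, close to the shares of all protein-coding genes. HoxB genes stood at 0, 30, 20 and 30%, and HoxC and HoxD genes at 0% in every library. In at least 2 libraries 8 Hox genes had a promoter peak, 20.5% against 45.2% of all protein-coding genes. In all 4 libraries 3 had it, Hoxa3, Hoxa7 and Hoxa9, against a background of 34.4%.

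Of the 9 Hox genes with a promoter peak in any library, 6 were in HoxA (Hoxa2, Hoxa3, Hoxa4, Hoxa6, Hoxa7 and Hoxa9) and 3 in HoxB (Hoxb2, Hoxb4 and Hoxb5). Hoxa4 and Hoxb2 had it in both replicate 2 libraries, Hoxa6, Hoxb4 and Hoxb5 in every library other than WT replicate 1, and Hoxa2 in WT replicate 1. The other 30 had none in any library. In HoxA they included Hoxa5, Hoxa10, Hoxa11 and Hoxa13, and in HoxB they were Hoxb1, Hoxb3, Hoxb6, Hoxb7, Hoxb8, Hoxb9 and Hoxb13. In HoxC they were Hoxc4, Hoxc5, Hoxc6, Hoxc8, Hoxc9, Hoxc10, Hoxc11, Hoxc12 and Hoxc13, and in HoxD they were Hoxd1, Hoxd3, Hoxd4, Hoxd8, Hoxd9, Hoxd10, Hoxd11, Hoxd12 and Hoxd13.

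With the window narrowed to 1 kb, Hoxa6 and Hoxb2 no longer had a promoter peak and the counts were 4, 6, 5 and 6 of 39. With the start of any transcript in place of the principal one, Hoxa10, the neighbour of Hoxa9, gained a promoter peak in XistΔ/Δ replicate 2. These changes touched single genes at the edges of the same group of regions.

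Next, 3′ genes were compared with 5′ genes. The 12 genes of paralogue groups 1 to 4, which pattern the hindbrain and neck, were taken as 3′ genes, the 11 genes of groups 5 to 8 as middle genes and the 16 genes of groups 9 to 13, which pattern the trunk, limbs and tail, as 5′ genes. Among 3′ genes 2 had a promoter peak in WT replicate 1, 4 in WT replicate 2, 2 in XistΔ/Δ replicate 1 and 4 in XistΔ/Δ replicate 2. Among middle genes the counts were 1, 3, 3 and 3, and among 5′ genes 1 in every library, which was Hoxa9 each time. Every class was below the share of all protein-coding genes in every library.

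The share of 3′ genes was 25.0% ± 9.62 (SD, n = 4 libraries) and that of 5′ genes 6.25% ± 0. The 3′ share was higher in all 4 libraries, by 18.75 percentage points ± 9.62 (two-sided exact sign-flip permutation test, p = 0.125, the smallest possible). The difference was 10.4 points in both replicate 1 libraries and 27.1 in both replicate 2 libraries. In HoxA and HoxB alone, the clusters with peaks, it was 20.8 points (37.5% against 16.7%). Within HoxA the 3′ share was 50% in both WT libraries, 25% in XistΔ/Δ replicate 1 and 50% in XistΔ/Δ replicate 2. The HoxA 5′ share was 25% in every library, so the classes tied in XistΔ/Δ replicate 1. HoxA middle genes stood at 33.3, 66.7, 66.7 and 66.7% in the same order. Within HoxB the 3′ share was 0, 50, 25 and 50%, and the 5′ class held 2 genes, both without a peak. Over all clusters without Hoxa3, whose start lies among the middle genes, the difference was 11.9 points, which is over 1.5 times smaller. The 3′ genes that remained with a peak were Hoxa2, Hoxa4, Hoxb2 and Hoxb4, none of them in all 4 libraries. The region counted for Hoxb2 lay past the 3′ end of that gene. With the promoter window at 1 kb, where Hoxb2 had no promoter peak, the difference over all clusters was 14.6 points. With lists of equal length the difference over all clusters was 10.4 points. The 5′ class holds 5 genes of HoxC and 5 of HoxD, clusters with no peak on any gene, against 1 and 3 genes of the 3′ class, so class and cluster are not balanced.

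**Figure D4:**
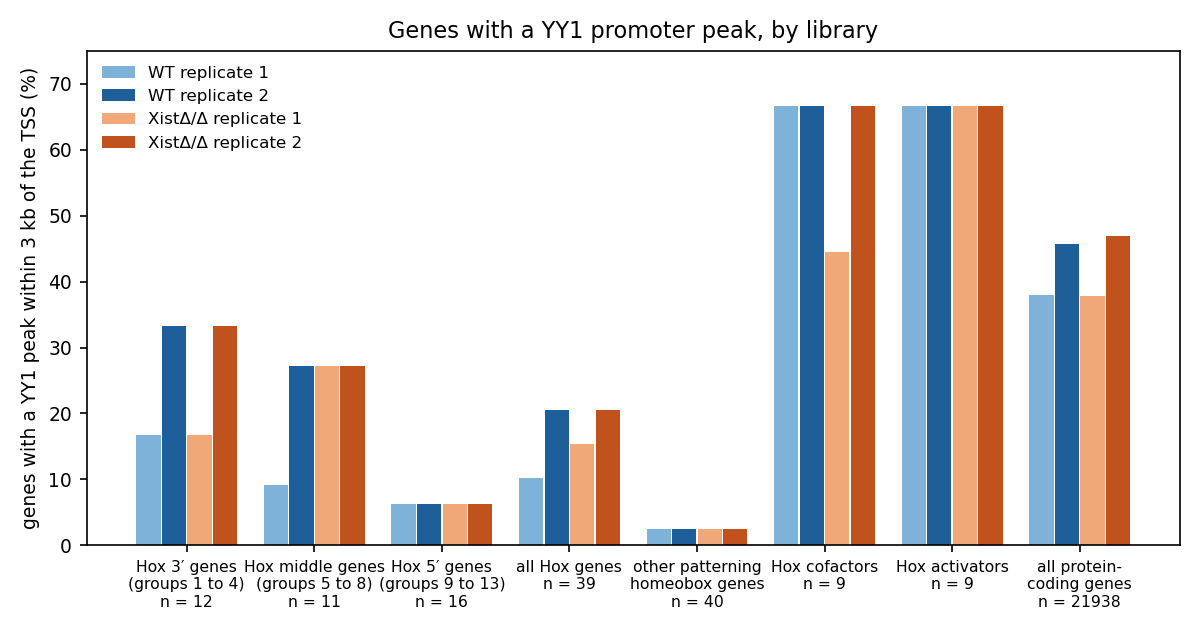
Percent of genes with a YY1 peak within 3 kb of a principal start site, by library, for the Hox genes by position in the cluster, for all Hox genes, for related gene lists and for all protein-coding genes, with the number of genes under each name. Hox 5′ genes stand at 6.25% in every library and all protein-coding genes between 37.9 and 47%.

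Other genes of the Hox system were counted in the same way. Of 9 genes for Hox cofactors, the homeodomain proteins that bind DNA together with Hox proteins, 6 had a promoter peak in WT replicate 1, 6 in WT replicate 2, 4 in XistΔ/Δ replicate 1 and 6 in XistΔ/Δ replicate 2. Pbx2, Pbx3, Meis1 and Pknox1 had it in all 4 libraries, Pbx4 in every library other than XistΔ/Δ replicate 1, and Meis2, Meis3 and Pknox2 in none. Of 9 genes for activators of Hox genes, 6 had it in every library. These were Kmt2a, which encodes MLL, Kmt2d, Men1, Psip1, Dot1l and Ash1l, all for chromatin proteins, and the 3 without it were Cdx1, Cdx2 and Cdx4, which encode caudal homeodomain factors of the early embryo. Of 40 homeobox genes outside the clusters with roles in patterning, 1 had a promoter peak, Irx5, in every library. The patterning homeobox genes were thus at 2.5% and the activators at 66.7%, on either side of the 37.9 to 47% of all protein-coding genes.

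The deletion of Xist was compared with WT over the Hox windows. The windows held 6 peaks in WT replicate 1 and 12 in WT replicate 2, against 8 in XistΔ/Δ replicate 1 and 15 in XistΔ/Δ replicate 2, so the groups overlapped and the spread between replicates was larger than the difference. The means were 9 ± 4.24 and 11.5 ± 4.95 (SD, n = 2), a difference of 2.5 peaks (two-sided exact permutation test, p = 0.667, where 2 libraries against 2 allow no p under 0.333). Within replicate numbers XistΔ/Δ had 2 and 3 peaks more, and without WT replicate 1 or XistΔ/Δ replicate 2 the difference turned to -0.5 or -1. The WT libraries had 5490 and 13798 bp covered, a mean of 9644 ± 5875 bp, and the XistΔ/Δ libraries 6004 and 14222 bp, a mean of 10113 ± 5811 bp (exact permutation p = 0.667). With each list cut to the 9553 highest placed peaks, the length of the shortest list, WT had 6 peaks in replicate 1 and 8 in replicate 2, XistΔ/Δ had 8 and 6, and the means were equal.

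No Hox region was specific to a genotype, that is, with a peak in both libraries of a genotype and in neither of the other. Over the genome, 1.24% of consensus regions were specific to XistΔ/Δ and 0.452% to WT. Peak widths were also ranked among all consensus regions within each library. HoxB-b and HoxA-c ranked higher in XistΔ/Δ in both replicate numbers, 2 of 12 against 19.6% of all consensus regions. HoxA-f and HoxA-g ranked lower, 2 of 12 against 18.8%. For HoxA-c and HoxB-b the replicate 1 step was from no peak in WT replicate 1 to a peak in XistΔ/Δ replicate 1. These counts are near the background and were not tested.

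Of the 12 consensus regions of the Hox clusters, 11 lay within 3 kb of an annotated start site of any gene, against 76.9% of all 14168 consensus regions. The share of the window bases that lies this near to a start is not given here, so the count was not set against it. In the 300 bases around the centre, the median ratio of observed to expected CpG was 0.847 in the 12 Hox regions and 0.706 in all consensus regions. The median GC content was 56.3% and 60%. Consensus regions within 3 kb of an annotated start, the class of 11 of the 12, had a median ratio of 0.803 and a median GC content of 64%. Over the whole windows the CpG ratio was 0.430 in HoxA, 0.329 in HoxB, 0.322 in HoxC and 0.445 in HoxD, so that clusters with and without peaks overlapped.

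The motif AANATGGC was present in 2 of the 12 sequences of 300 bases, HoxA-h and HoxB-a, against 11.8% of all consensus regions, and its last 5 bases ATGGC, which every match of the longer motif also contains, in 8 of 12 against 50.7%. Over the whole length of the regions, which varies, the longer motif was in 3 of 12, the third being HoxA-d, which is 25% against 28.7% of all consensus regions. Both matches in the 300 bases read AAAATGGC. HoxA-e and HoxA-f, found in all 4 libraries, held neither in these 300 bases.

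The clusters without peaks held the motif too. AANATGGC occurred 21 times in the HoxA window, 30 in HoxB, 17 in HoxC and 26 in HoxD, which is 14.5, 14.0, 10.9 and 19.0 per 100 kb against 22.8 in the nuclear genome. A peak of any library covered 4 of the 21 in HoxA and 1 of the 30 in HoxB. None of those in HoxC and HoxD was under a peak. RefSeq promoters were found for 22 of the 39 Hox genes (24 promoters), and of these the Hoxd10 promoter printed above held the motif, 4.17% against 6.05% of 32851 RefSeq promoters. The 2 RefSeq promoters that a peak covered in any library, those of Hoxa3 and Hoxb4, did not hold it.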

How the data were processed

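YY1 ChIP-seq of Lin- bone marrow cells was analysed in 4 libraries, 2 WT and 2 XistΔ/Δ. The other 8 samples of the series, of histone marks, were not analysed here. The authors digested chromatin with MNase, trimmed reads with Trim Galore, aligned them to mm10 with Bowtie2 2.3.5.1, removed reads of mapping quality under 30 (SAMtools 1.10) and duplicates, and called peaks in each library with HOMER 4.9.1 without input. Per the file headers, the false discovery rate was 0.001, peaks needed 4-fold more tags than the local 10 kb, and 0 peaks were removed by that filter. The deposited files give the start and end of each peak in mm10, and the deposited score is 1 for every peak, so that no peak height was used. Peaks are listed in the caller's order. Headers and labels number the replicates differently, and labels were followed.

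Peak positions were read into Python 3.11.15 (NumPy 2.4.6, SciPy 1.17.1, pysam 0.24.0) and set against GENCODE M21. Covered shares, counts of genes and regions were computed per library and compared by exact permutation or sign-flip tests over libraries, two-sided. Procedures were tested on simulated data. All 39 Hox genes were counted, and the text names them, other genes in the windows that a consensus region touches or lies nearest to, and members of fixed lists, and a few items are not reported here. Windows, promoter distance, overlap, list length and single libraries were varied. Members, lists and tests were chosen with earlier results of these data known. Widths and counts have counting and calling error that the files do not give, and p-values rest on these libraries alone. A sign-flip p at its smallest value says only that all libraries differed in the same direction, whatever their spread. Depth ranged from 23.1 to 59.5 M tags.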

Additional observations from a re-analysis of the deposited data

How the results depend on the processing

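Of 101 recomputed values 74 kept their direction or, for counts, stayed within 1.5 times, 16 were 0 as before (HoxC against HoxD and regions specific to a genotype), and no test could pass 0.05 under any setting. Leaving out each library in turn moved the difference in Hox peaks (XistΔ/Δ minus WT) between -1 and 6 and that in covered length between -3685 and 4623 bp, and the signs turned negative without WT replicate 1 (-0.5 peaks) and without XistΔ/Δ replicate 2 (-3640 bp). With lists of equal length the difference in Hox peaks was 0 and that in covered length -1110.5 bp. Consensus regions numbered 7 with lists of equal length and 5 when all 4 libraries were required, against 12. Leaving out single libraries, an alternative added after the data were seen, gave 0 to 3 regions specific to XistΔ/Δ and 0 to 1 specific to WT, with 3 and 1 without WT replicate 2 and 2 specific to XistΔ/Δ without XistΔ/Δ replicate 1. HoxA and HoxB alone, Hoxa3 left out and HoxB without Hoxb13 were also added after the data were seen, and the last gave a difference of 3.53 points between HoxA and HoxB. The cause of these changes was not tested.

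The replicate numbers may mark only a shared header number and depth. Deviations in log2 width of same-numbered libraries from their group means correlated at 0.296 over 7757 regions, a value that is equal for both numbers by construction with 2 pairs. With replicate as a block the differences were 2.5 peaks and 469 bp (exact sign-flip p = 0.5 for both, the smallest that 2 pairs allow), and the block changed no call.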
